A study of Mus musculus with 10 samples.

Results

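The Ms4a genes encode small membrane proteins, and 5 of them, Ms4a4c (ENSMUSG00000024675), Ms4a6b (ENSMUSG00000024677), Ms4a6c (ENSMUSG00000079419), Ms4a6d (ENSMUSG00000024679) and Ms4a7 (ENSMUSG00000024672), were followed through an LPS experiment in mouse macrophages with and without the transcription factor Atf3. All 5 were found among the 16860 genes measured. They were chosen by earlier results from the same 10 arrays, among them the levels, LPS responses and response difference of Ms4a4c. All 5 comparisons below therefore count as used in the choice, and the members' differences are given as descriptions, with standard errors and no p-values.

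Bone marrow-derived macrophages, grown with recombinant human macrophage colony-stimulating factor, came from mice of strain C57BL/6J that the labels give as female and 8 to 12 weeks old. Each genotype, wild type or Atf3-/-, had 3 arrays of resting cells and 2 arrays of cells given 10 ng/mL LPS for 4 h, all Affymetrix Mouse Genome 430 2.0. Whether arrays stand for separate animals or dishes is not stated in the labels, so their spread may be technical.

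MS4A proteins cross the membrane several times and include CD20, the B cell antigen, and the beta chain of the high-affinity IgE receptor of mast cells. Macrophages use other members, several of which are known to sit beside immune receptors and to tune their signals, and in humans the locus is known for variants associated with Alzheimer disease. LPS activates macrophages through Toll-like receptor 4, which switches on inflammatory genes first and interferon-stimulated genes through secreted interferon beta. ATF3, which belongs to the ATF/CREB transcription factors, is made in response to such signals and is known to hold part of them back. In these cells fewer macrophages expressing a gene and less RNA per cell cannot be told apart, since each array reads a whole culture.

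In the RefSeq annotation of GRCm38.p6 the family lies on chromosome 19 as a block of 21 Ms4a genes among 22 protein-coding genes. Counted along the block, Ms4a7 is number 12, Ms4a4c number 14, Ms4a6c number 16, Ms4a6b number 18 and Ms4a6d number 20. Ms4a7 is transcribed from the minus strand, and Ms4a4c, Ms4a6c and Ms4a6b from the plus strand. The RefSeq promoter table, which runs from 250 bases before a start site to 50 bases after it, matched 4 of the 5 members by symbol with 5 entries. Those of Ms4a6b and Ms4a6c are shown first because they are close relatives, and that of Ms4a4c because its expression moved most. Capitals mark the GAAANNGAA part of the interferon-stimulated response element (ISRE), the site of interferon-activated factors.

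The sequences are from RefSeq on build GRCm38.p6 and run 5′ to 3′. Ms4a6b is chr19:11518309-11518608, plus strand. Ms4a6c is chr19:11469118-11469417, plus strand. Ms4a4c is chr19:11407411-11407710, plus strand, at an annotated start inside the span of the gene.
Ms4a6b: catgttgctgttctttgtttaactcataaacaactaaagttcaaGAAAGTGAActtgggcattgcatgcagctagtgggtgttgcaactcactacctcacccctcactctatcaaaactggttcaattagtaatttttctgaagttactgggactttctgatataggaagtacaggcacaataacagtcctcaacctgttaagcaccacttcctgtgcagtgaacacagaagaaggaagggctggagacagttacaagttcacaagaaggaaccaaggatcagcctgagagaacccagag
Ms4a6c: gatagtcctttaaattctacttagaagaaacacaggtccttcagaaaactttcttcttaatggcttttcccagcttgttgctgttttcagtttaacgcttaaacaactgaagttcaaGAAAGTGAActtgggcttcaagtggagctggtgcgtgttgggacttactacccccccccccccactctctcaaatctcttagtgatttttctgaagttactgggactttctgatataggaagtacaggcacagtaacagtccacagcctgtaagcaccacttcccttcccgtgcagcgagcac
Ms4a4c: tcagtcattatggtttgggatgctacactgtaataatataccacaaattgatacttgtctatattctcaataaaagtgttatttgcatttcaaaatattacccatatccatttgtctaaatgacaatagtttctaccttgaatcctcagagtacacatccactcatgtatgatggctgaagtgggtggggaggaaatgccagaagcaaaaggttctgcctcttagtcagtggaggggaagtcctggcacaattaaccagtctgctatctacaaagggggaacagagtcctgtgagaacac

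The Ms4a6b and Ms4a6c promoters were 85.3% identical over 225 aligned bases and shared 1 unbroken run of 48 bases. Both held the ISRE part once. Their identical bases made up 64.0% of the 300 bases. Outside this pair and Ms4a4c with Ms4a4b, identity over aligned bases among Ms4a promoters was at most 69.4% (Ms4a19 with Ms4a6b). GAAANNGAA occurs on either strand in 8.56% of the 32851 mouse promoters in the table.

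Ms4a7 has 2 annotated start sites, and each window held GAAANNGAA once. The match lay on the opposite strand 71 to 63 bases before the outer start and on the same strand 148 to 140 bases before the inner start. The inner window also held TGANTCA, the AP-1 motif, 81 to 75 bases before the start, a motif found in 7.81% of all promoters. In the Ms4a4c window none of the 6 motifs searched on both strands was found, which says only that these letters are not in these 300 bases. The other motifs searched were TTCNNNGAA (the GAS element of STAT factors), GAGGAAGT (PU.1), TGACGTCA (the CRE bound by ATF/CREB factors) and the kappaB consensus. These occur in 8.30%, 3.20%, 1.79% and 4.51% of all promoters, and in none of the 5 windows of the 4 members with an entry. Ms4a6d had no entry and was not searched. No match overlapped another in the members' windows. Of the 19 Ms4a promoters listed, 5 held GAAANNGAA, 4 of them those of Ms4a6b, Ms4a6c and Ms4a7. The Ms4a4c promoter was 81.9% identical over 281 aligned bases to that of its neighbour Ms4a4b, which is not among the 5 genes. A motif match is a description of sequence and shows no binding.

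**Figure D1:**
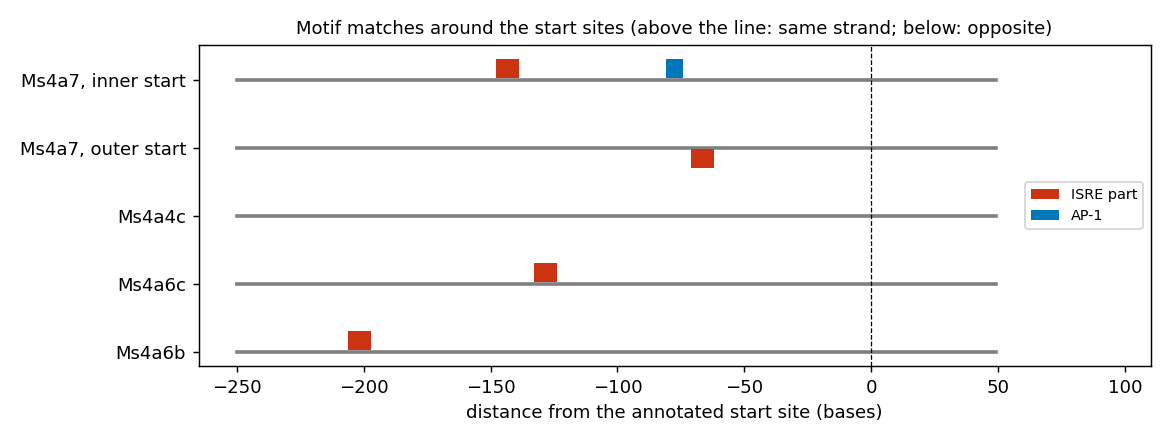
Motif matches in the 5 promoter windows of 4 Ms4a genes, by distance in bases from the annotated start site (dashed line). Red blocks are GAAANNGAA, the blue block is TGANTCA, drawn above the line for the same strand and below it for the opposite strand. The Ms4a4c window holds no match.

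The 10 arrays also divided into 2 states, which were mixed within both Atf3-/- groups but not within the wild type groups. The states were seen in the probeset ENSMUSG00000086503, which the sources used here do not name. Its log2 value was 8.95 to 9.57 in 5 arrays, called the high state here, and 2.94 to 3.76 in the remaining 5, the low state. Resting wild type cells were in the high state in 3 of 3 arrays and LPS-treated wild type cells in 0 of 2, so that in wild type the state and LPS cannot be told apart. Among Atf3-/- arrays 1 of 3 resting and 1 of 2 LPS-treated were high. Values with the state as a covariate, or within one state, are given with the results. The covariate rests on the Atf3-/- arrays alone and assumes an equal effect in every group. The probeset with the largest opposite difference between the states, ENSMUSG00000069045, also not named in the sources used here, was at 2.94 to 3.26 in the high state and 8.29 to 8.71 in the low state. No table used here pairs these IDs with sex-linked genes, so the label female could not be checked against named genes. A difference in sex between the animals cannot be told apart from the state. Were the states the 2 sexes, 5 of the 10 arrays would go against the label female. In wild type, sex and LPS could then not be told apart either. This was not tested. Array medians lay between 5.45 and 5.56, and arrays of a group correlated at 0.991 to 0.996. The table names rows only by Ensembl ID, and no table used here pairs those IDs with symbols, so Atf3 itself, macrophage markers, markers of other cells and the other Ms4a genes were not checked. How far the probes of 1 Ms4a gene also match its relatives is not given in the sources used here.

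Ms4a4c, one of several Ms4a4 copies that mice carry, was the member with the widest range, from below the arrays' medians in resting wild type cells to above them in the other groups. Its log2 values without LPS were 4.24, 4.28 and 4.13 in wild type and 7.04, 7.02 and 7.56 in Atf3-/-. With LPS they were 11.20 and 11.07 in wild type and 11.30 and 10.63 in Atf3-/-. Without LPS the genotypes did not overlap and were separated by a gap of 2.74, whereas with LPS the Atf3-/- arrays lay on either side of the wild type ones.

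The wild type response of Ms4a4c to LPS was 6.92 on the log2 scale (SE 0.20), or 121-fold, and ranked 17th from the top among 16860 genes. The mean of the resting wild type arrays, 4.22 ± 0.08 (SD, n = 3), lay below every array's median, so the size of this fold depends on the background correction. The response in Atf3-/- was 3.76 (SE 0.20), or 13.5-fold. The response difference was -3.16 (SE 0.28), the 3rd lowest of all genes. It was made up almost entirely of the resting levels, which differed by 2.99 (SE 0.18), or 7.96-fold. That was the 5th highest difference of all genes without LPS. The response difference and the resting difference both use the same low wild type value, so their sizes depend on the background correction as well. After LPS the genotypes differed by -0.17 (SE 0.22, 95% interval -0.64 to 0.30).

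The resting difference of Ms4a4c was 3.00 with the state as a covariate. Within the high state, which holds 3 wild type arrays and Atf3-/- replicate 3, it was 3.34. In Atf3-/- the array in the high state was the highest at rest (7.56) but the lower with LPS (10.63). These opposite differences nearly cancelled in the 1 effect that the covariate fits. The value with the covariate is therefore hardly adjusted for the state. In Atf3-/- cells the LPS response was 3.07 within the high state and 4.27 within the low state, with 1 array with LPS in each. After LPS the genotype difference was 0.17 without Atf3-/- LPS replicate 2 and -0.51 without replicate 1, so its sign rests on a single array.

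**Figure D2:**
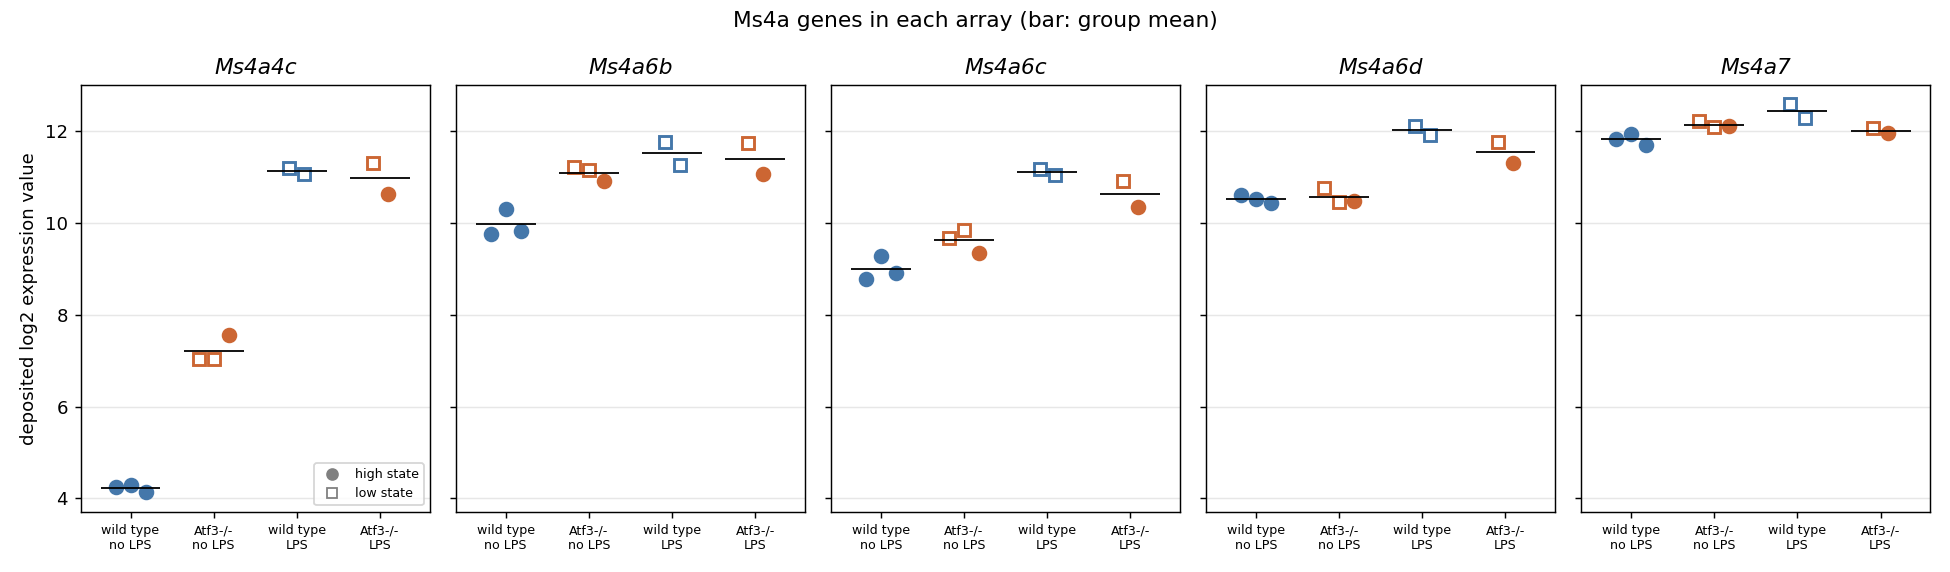
Deposited log2 expression value of each Ms4a gene in each of the 10 arrays, by genotype and LPS. Symbols are single arrays in replicate order (filled circles: high state, open squares: low state) and bars are group means. Ms4a4c lies at 4.13 to 4.28 in resting wild type cells and at 7.02 to 7.56 in resting Atf3-/- cells.

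Ms4a6b and Ms4a6c, relatives of human MS4A6A, had the next largest resting differences. The log2 values of Ms4a6b without LPS were 9.76, 10.31 and 9.83 in wild type and 11.21, 11.15 and 10.90 in Atf3-/-. With LPS they were 11.77 and 11.26 in wild type and 11.73 and 11.06 in Atf3-/-. Resting Atf3-/- arrays thus lay above all resting wild type arrays and overlapped the Atf3-/- arrays with LPS.

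Ms4a6b responded to LPS by 1.55 (SE 0.22) in wild type, or 2.93-fold, and by 1.10 with the state as a covariate. Its response in Atf3-/- was 0.31 (SE 0.22, 95% interval -0.18 to 0.79), 19.7% of the wild type response on the log2 scale. That value rested on single arrays, at -0.03 without Atf3-/- LPS replicate 1 and 0.64 without replicate 2. The resting genotype difference was 1.12 (SE 0.20), or 2.18-fold, and the difference after LPS was -0.12 (SE 0.24). The latter turned to 0.21 without Atf3-/- LPS replicate 2, to 0.13 without wild type LPS replicate 1 and to 0.10 with the state as a covariate. With the state as a covariate the resting difference was 0.83. The response difference went from -1.25 to -0.72 with that covariate, where it no longer passed limma's threshold. Nor did the response difference pass with array weights or with array medians subtracted. Within the high state the resting difference was 0.94.

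The log2 values of Ms4a6c without LPS were 8.77, 9.27 and 8.92 in wild type and 9.68, 9.84 and 9.34 in Atf3-/-. With LPS they were 11.18 and 11.03 in wild type and 10.92 and 10.34 in Atf3-/-. The resting groups did not overlap but came within 0.07 of each other, and after LPS both Atf3-/- arrays lay below both wild type arrays.

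Ms4a6c responded by 2.12 (SE 0.20) in wild type, or 4.35-fold, and by 1.01 (SE 0.20) in Atf3-/-, or 2.01-fold. The resting genotype difference was 0.63 (SE 0.18), or 1.55-fold. After LPS the difference was -0.48 (SE 0.22), at -0.19 without Atf3-/- LPS replicate 2 and -0.76 without replicate 1. With the state as a covariate the wild type response was 1.63, the resting difference was 0.31 and the response difference went from -1.11 to -0.54, and neither then passed the threshold. Within the high state the resting difference was 0.35. Neither the resting nor the response difference passed with array weights, and the response difference did not pass with quantile normalization. In resting Atf3-/- cells the array in the high state was the lowest of the 3 for both Ms4a6b and Ms4a6c and the highest for Ms4a4c. The part of the state in these differences was not tested further.

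Ms4a6d, which in mouse macrophages is known as a partner of the receptor VSIG4, responded to LPS in both genotypes from one resting level. Its log2 values without LPS were 10.60, 10.51 and 10.44 in wild type and 10.75, 10.44 and 10.48 in Atf3-/-. With LPS they were 12.11 and 11.92 in wild type and 11.77 and 11.30 in Atf3-/-. The resting groups overlapped, and each genotype's arrays with LPS lay above all its arrays without LPS.

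The response of Ms4a6d was 1.49 (SE 0.15) in wild type, or 2.81-fold, and 0.97 (SE 0.15) in Atf3-/-, or 1.96-fold. The resting genotype difference was 0.04 (SE 0.13, 95% interval -0.25 to 0.33). After LPS the difference was -0.48 (SE 0.16) and was -0.24 without Atf3-/- LPS replicate 2. With the state as a covariate the wild type response was 1.23 and the response difference went from -0.52 to -0.21.

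Ms4a7, used as a marker of macrophages at the borders of the brain, varied least. Its log2 values without LPS were 11.83, 11.93 and 11.69 in wild type and 12.21, 12.09 and 12.11 in Atf3-/-. With LPS they were 12.58 and 12.29 in wild type and 12.06 and 11.95 in Atf3-/-. The Atf3-/- arrays lay above the wild type arrays at rest, by a gap of 0.16, and below them after LPS, by a gap of 0.23. Neither genotype difference passed limma's threshold in the fit of all arrays. How many of all genes lack overlap in such small groups was not counted.

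Ms4a7 responded by 0.62 (SE 0.12) in wild type, or 1.54-fold. In Atf3-/- the difference with LPS was -0.13 (SE 0.12, 95% interval -0.38 to 0.12). The genotype difference was 0.32 (SE 0.10) at rest and -0.43 (SE 0.13) after LPS. The response difference was -0.75 (SE 0.16) and -0.67 with the state as a covariate, where it no longer passed the threshold.

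In wild type all 5 passed limma's threshold for LPS (adjusted p under 0.05 over all genes), where 41.3% of all genes did, with a median difference of 1.55 against 0.02 over all genes. In Atf3-/- 3 of 5 passed, where 41.1% of all genes did, with medians of 0.97 and 0.06. The 2 that did not pass were Ms4a6b and Ms4a7. For the resting genotype difference 3 of 5 passed (Ms4a4c, Ms4a6b and Ms4a6c), where 12.8% of all genes did, with medians of 0.63 and -0.00066. For the genotype difference after LPS 0 of 5 passed, where 3.93% of all genes did, with medians of -0.43 and 0.0094. For the response difference 4 of 5 passed (not Ms4a6d), where 5.96% of all genes did, with medians of -1.11 and 0.02. Because the genes were chosen with these comparisons known, nothing is read from these counts. The LPS and genotype comparisons share arrays with one another, and the response difference is the Atf3-/- response minus the wild type response.

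All 5 fitted differences were above 0 for LPS in wild type and for Atf3-/- against wild type at rest, and 4 of 5 for LPS in Atf3-/-, where Ms4a7 was at -0.13. All 5 were below 0 for the response difference. The genotype differences after LPS were also below 0, but those of Ms4a4c and Ms4a6b changed sign on leaving out a single array. The wild type response ran in the order Ms4a4c, Ms4a6c, Ms4a6b, Ms4a6d and Ms4a7. Next to each other in that order, Ms4a6b and Ms4a6d, at 1.55 and 1.49, did not differ beyond their standard errors. The resting genotype difference ran in the order Ms4a4c, Ms4a6b, Ms4a6c, Ms4a7 and Ms4a6d. As a share of the wild type LPS response on the log2 scale, the resting difference was 43.3% for Ms4a4c, 72.6% for Ms4a6b, 29.9% for Ms4a6c, 2.70% for Ms4a6d and 51.6% for Ms4a7. These shares carry the errors of both values, which are not independent since both use the resting wild type arrays. The wild type response also cannot be told apart from the state.

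**Figure D3:**
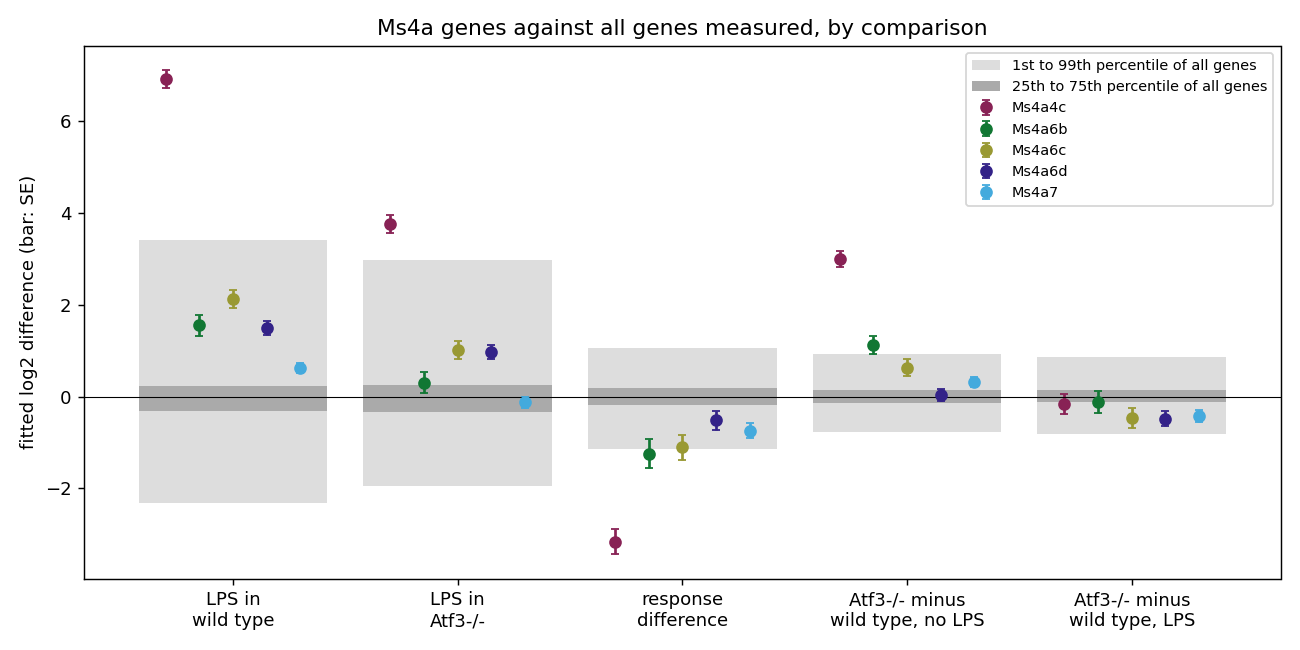
Fitted log2 difference of the 5 Ms4a genes in 5 comparisons, with bars of 1 standard error, over the 1st to 99th percentile (light) and the 25th to 75th percentile (dark) of all 16860 genes. Ms4a4c lies outside the light band in 4 of the 5 comparisons and at -0.17 in the genotype comparison after LPS.

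In Atf3-/- cells with LPS, replicate 2 was the lower array for each of the 5 genes, by 0.68 for Ms4a4c. It was also the only array with LPS in the high state, so the replicate and the state cannot be told apart here. Without it the response difference was -2.82 for Ms4a4c, -0.91 for Ms4a6b, -0.82 for Ms4a6c, -0.28 for Ms4a6d and -0.69 for Ms4a7, and of these only that of Ms4a4c passed the threshold, where 2.97% of all genes did. Without replicate 1 it was -3.50 for Ms4a4c, -1.58 for Ms4a6b, -1.40 for Ms4a6c, -0.76 for Ms4a6d and -0.80 for Ms4a7, and all 5 passed, where 8.09% of all genes did. With the state as a covariate 1 of 5 passed, where 0.789% of all genes did. Over all fits the response difference lay between -3.50 and -2.82 for Ms4a4c and between -0.89 and -0.60 for Ms4a7. It lay between -1.58 and -0.72 for Ms4a6b and between -1.40 and -0.54 for Ms4a6c. At rest, over all fits, the genotype difference lay between 2.82 and 3.09 for Ms4a4c and between 0.83 and 1.30 for Ms4a6b. For Ms4a6c it lay between 0.31 and 0.77. The value of Ms4a4c within the high state, a difference of means and not a fit, was 3.34, above its range. Several of the fits keep the fitted difference by construction. The genes were chosen with these comparisons known, so the ranges are descriptions.

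**Figure D4:**
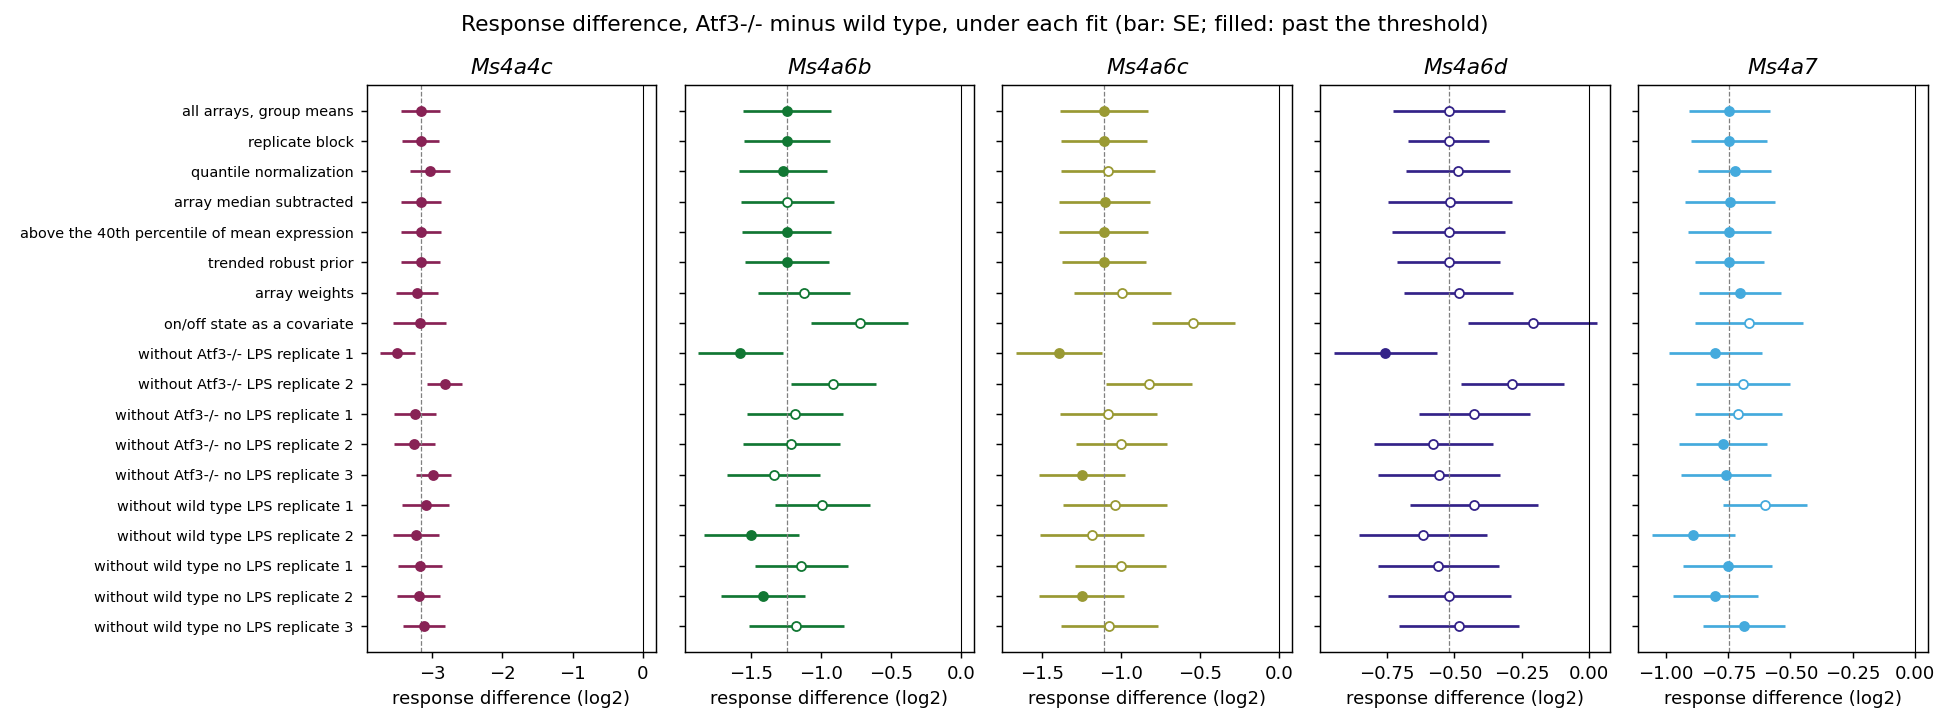
Response difference on the log2 scale (Atf3-/- minus wild type, bars of 1 standard error) of each Ms4a gene in the fit of all arrays and in 17 alternatives, with horizontal axes that differ between genes. Filled points passed limma's threshold, and the dashed line is the value with all arrays. Ms4a4c stays between -3.50 and -2.82, while the values of Ms4a6b and Ms4a6c come nearest to 0 with the state as a covariate.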

How the data were processed

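The deposited values are log2 expression, with a single value for each gene and array. According to the design text of the series, the authors re-processed probe intensities of earlier arrays with CustomCDF ENSG probesets, version 13. The submitters' processing notes list affy 1.26.1. How background was corrected and arrays normalized is not given in the sources used here. No depth applies to arrays, and their number limits the precision.

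A model of group means over the 10 arrays was fitted in limma 3.58.1 and R 4.3.3 (lmFit and eBayes, 6 residual and 5.44 prior degrees of freedom), with Benjamini-Hochberg adjustment over 16860 genes and a threshold of 0.05. Fits were tested on simulated data. Alternatives were the replicate block, quantile normalization, median subtraction, a filter keeping genes above the 40th percentile in mean level, a trended robust prior, array weights, only the arrays compared, the state of the arrays, and leaving out each array.

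The 5 genes, their symbols, the lists and the motifs were chosen with earlier results of these data known. The rule for named genes took the 5 members. Its lists of other Ms4a genes, neighbours, partners, interferon-stimulated genes and cell markers, and its search for genes of like pattern, needed symbols and were not run. Promoters came from RefSeq (GRCm38.p6), and 71 of 71 overlapping windows on opposite strands of chromosome 19 were reverse complements of each other. Alignments used Biopython 1.88 and were global.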

Additional observations from a re-analysis of the deposited data

Results flagged for a closer look

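The LPS response differed between the genotypes in limma's interaction test for 4 of the 5 genes, against 5.96% of all genes. The 5 genes were chosen with this result known, so the count is a description. The response difference (Atf3-/- minus wild type, log2 scale) was -3.16 for Ms4a4c, -1.25 for Ms4a6b, -1.11 for Ms4a6c and -0.75 for Ms4a7. With the state of the arrays as a covariate it was -3.18, -0.72, -0.54 and -0.67 in the same order. Only that of Ms4a4c then passed, against 0.789% of all genes. For Ms4a4c the high state went opposite ways in Atf3-/- cells with and without LPS, so the covariate hardly adjusted its value. Of the 17 alternative fits, the call was kept in 17 for Ms4a4c, 7 for Ms4a6b, 7 for Ms4a6c and 13 for Ms4a7. Groups of 2 or 3 arrays were too small for a test of outlying arrays.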

How the results depend on the processing

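Under every alternative run Ms4a4c kept its side of the threshold in all 5 comparisons, which describes a gene chosen with them known. The sign of each called value was kept for all 5 genes. Within 1 state of the arrays, with no test, Ms4a4c differed by 4.27 (low) and 3.07 (high) with LPS in Atf3-/-, by 3.34 between the resting genotypes (high) and by 0.17 between the genotypes after LPS (low). The last is the same value as that without Atf3-/- LPS replicate 2, not a separate check. Leaving out each array gave Ms4a4c values of 6.85 to 6.99 for LPS in wild type, 3.42 to 4.09 for LPS in Atf3-/-, -3.50 to -2.82 for the response difference, 2.82 to 3.09 at rest and -0.51 to 0.17 after LPS. A lone array was then assumed to vary like the other groups. For the other 4 genes 334 of 372 values moved by less than 1 pooled SD and 38 by more. Of the 38, 24 were on leaving out an array, 12 with or within the state and 2 under quantile normalization. Many of the 334 could not move. The filter, the prior, the fit of only the arrays compared and leaving out an array outside a comparison keep the fitted difference as it was. The share of 334 is therefore no measure of stability. Calls lost were response differences of Ms4a6b, Ms4a6c and Ms4a7 and the resting difference of Ms4a6c, and calls gained under some alternatives were the response difference of Ms4a6d, the resting difference of Ms4a7 and the differences of both after LPS. The 1005 genes called for the response difference became 133 with the state as a covariate and 290 without wild type LPS replicate 1, the 2157 at rest became 1052 with the state, and the 662 after LPS became 419 with the state and 63 with only the arrays compared. Other counts more than 1.5 times lower were 500 to 617 for the response difference and 1193 to 1382 at rest on leaving out an array, and after LPS 414 with array weights, 231 on omitting wild type LPS replicate 1 and 319 on omitting replicate 2 of Atf3-/- with LPS. The causes were not tested. With the replicate block the response difference of Ms4a4c was -3.16 and its responses were 6.98 and 3.82. The block changed 1 call among the 5 genes, that of Ms4a6d after LPS (-0.48), which passed. Same-numbered arrays correlated at -0.07 to 0.30 in their deviations from the group means, above 0.1 in 7 of 13 pairs. Since not every pair was above 0.1, the numbers were not taken to pair the arrays, which does not show that they share no batch. Not every array correlated best with its own number. No within-state value could be had for LPS in wild type or the response difference.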
